A study of Rattus norvegicus with 16 samples.

Results

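Islets cultured at 10 mmol/l glucose, the concentration in which they had been kept beforehand, were compared with islets moved to 5 mmol/l, a concentration near the resting level of beta cells. The comparison takes the 4 arrays labelled 10 mmol/l and the 4 labelled 5 mmol/l, which makes 8 of the 16 arrays of the series, and covers every probe set that is not a hybridization or labelling control. All arrays carry RNA of pancreatic islets from male Wistar rats of 180 to 200 g (age not given in the labels). The islets spent 1 week at 10 mmol/l glucose in serum-free RPMI medium with BSA (5 g/l), then 18 h in that medium at the glucose concentration tested, with 1000 islets for each condition. The remaining 8 arrays, at 2 and 30 mmol/l, share this history and served to estimate the spread and to set the change between 10 and 5 mmol/l beside the neighbouring steps. The design text states that the 4 experiments used different islet preparations, so the arrays numbered 1 to 4 within a concentration are separate preparations, each of whole islets rather than sorted cells.

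Beta cells take up glucose through a transporter that does not limit flux, phosphorylate it with glucokinase and burn it in mitochondria, and the rise in ATP closes potassium channels, opens calcium channels and releases insulin. Over hours, glucose also acts on transcription and mRNA levels: it is known to engage ChREBP at carbohydrate response elements, calcium and cAMP signals at CREB target genes, and the folding and transport machinery that proinsulin needs. Low glucose is known to slow protein synthesis in these cells and, over longer times, to activate stress genes. RNA was measured on Affymetrix Rat230_2 arrays, on which a probe set reports 1 transcript as a signal in arbitrary units on a linear scale. A gene stands here for its brightest probe set, fold values are ratios of the mean signals, and log2 changes and adjusted p-values come from limma over all 16 arrays with Benjamini-Hochberg adjustment over all tested probe sets. A gene is called changed where that adjusted p is under 0.05.

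Of 18625 probe sets tested, 1867 were higher at 10 mmol/l (10.0%) and 2068 were lower (11.1%), which makes 3935 or 21.1% in either direction. Counted as genes, 10223 were tested, and 1087 rose (10.6%) while 1448 fell (14.2%). With the preparation number as a block the same gene counts were 1658 (16.2%) and 2021 (19.8%). The 4 arrays of each concentration did not overlap for 1119 genes on the higher side (10.9%) and 1564 on the lower side (15.3%). Most changes were small: 85 called genes rose and 149 fell by at least 1 on the log2 scale, and 8 rose and 24 fell by at least 2. Of the 3935 called probe sets, 3859 moved in the same direction in all 4 preparations and 76 in 3 of them. The calls were made on these same arrays, so this agreement is no separate support. Other scalings moved the split. With each array centred on the median of the tested probe sets, 2052 were higher and 1875 lower, and with each array centred on the median of all its probe sets, a shift of 0.0777 on the log2 scale, 1150 probe sets were higher and 2548 lower.

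**Figure D1:**
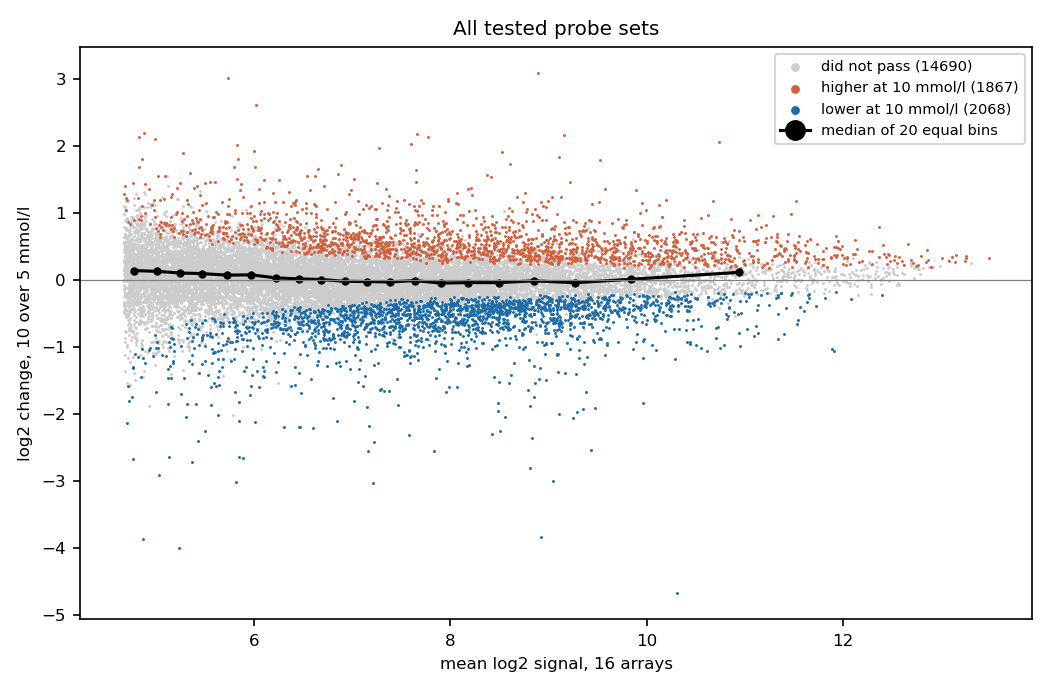
Each point is 1 of the 18625 tested probe sets; the horizontal axis is its mean log2 signal over the 16 arrays and the vertical axis its log2 change, 10 over 5 mmol/l. Orange points (1867) were higher and blue points (2068) lower at 10 mmol/l, and the black line, the median of 20 equal bins, lies near 0 and turns upward at both ends of the signal range.

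The change depended on signal level to a small degree. The median log2 change was 0.137 in the dimmest of 10 equal bins of the tested probe sets, 0.101 in the next and 0.07 in the brightest. Among the 200 brightest, where hormone and secretory transcripts lie, it was 0.18, with 74 called higher and 7 lower. The cause of these shifts was not tested. The 3′ to 5′ ratio of the actin control was 2.07 ± 0.136 on the 10 mmol/l arrays and 2.04 ± 0.0835 on the 5 mmol/l arrays (SD, n = 4 per concentration; exact permutation p = 0.629, two-sided). The spiked hybridization controls had a mean log2 signal of 10.13 ± 0.0767 on the 10 mmol/l arrays and 9.84 ± 0.192 on the 5 mmol/l arrays (SD, n = 4 per concentration), higher in 4 of 4 preparations (exact permutation p = 0.0571, adjusted over 5 measures 0.286, with 0.0286 the smallest p possible). Their part in the results was not tested. The arrays of 1 preparation shared a fluidics run, while the fluidics module number followed the glucose concentration on every array, so module and glucose cannot be told apart. Markers of cell types were summed over each list, and each sum was set against itself between arrays, since the level of a probe set cannot be read against that of others. The summed signal of 8 beta cell markers was 38439 to 50488 on the 10 mmol/l arrays and 29851 to 35974 on the 5 mmol/l arrays, and that of 20 exocrine acinar markers 309 to 390 and 272 to 348, with Prss2 at the floor on all 8 arrays. Sums for 9 alpha cell markers were 19684 to 23214 at 10 mmol/l and 17257 to 19192 at 5 mmol/l, those for 7 delta cell markers 9048 to 10181 and 7337 to 7928, those for 10 duct markers 7531 to 8543 and 7601 to 8816, and those for 14 stellate cell and fibroblast markers 1883 to 5067 and 1667 to 3715. In such mixed tissue, fewer cells of a type and less RNA per cell cannot be told apart.

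The 20 largest changes each way were taken only from called genes whose arrays at 10 and 5 mmol/l did not overlap. Among the 20 largest increases were genes of membrane lipids, of receptors and of calcium and G protein signalling. Mfsd2a, a transporter of lysophospholipids that carry polyunsaturated fatty acids, had signals of 160.5, 150.2, 148 and 100.4 on the 10 mmol/l arrays, against 20.2, 27.8, 22.3 and 20 on the 5 mmol/l arrays. Its mean was 6.19-fold higher at 10 mmol/l (log2 change 2.62, SE 0.21, limma adjusted p = 1.31e-07). Tmem215, a membrane protein of little known function, gave 3199.7, 4079, 3812 and 3371 on the 10 mmol/l arrays, against 785, 978, 858 and 848 on the 5 mmol/l arrays. Every 10 mmol/l array of Tmem215 exceeded every 5 mmol/l array, and the log2 change of 2.06 (SE 0.11) had a limma adjusted p of 1.23e-09. Adra2a encodes the alpha-2A adrenergic receptor, through which catecholamines restrain insulin release, and read 854, 760.2, 782 and 703 on the 10 mmol/l arrays, against 258, 239, 162 and 175 on the 5 mmol/l arrays. The receptor's 10 mmol/l arrays all lay above its 5 mmol/l arrays, at 3.72-fold in the means (limma adjusted p = 3.88e-07). Dcx, a microtubule protein best known from migrating neurons, had 876, 908, 824 and 586 on the 10 mmol/l arrays, against 211, 264, 217 and 264 on the 5 mmol/l arrays. Its ratio of means was 3.35 and its groups did not overlap.

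The other large increases ran between 1.34 and 2.16 on the log2 scale, with groups apart in each, as their choice required. Gem, a small GTPase that holds calcium channels back, rose 4.46-fold. Other receptors and G protein partners in this set were the orphan receptor Gpr6 (2.99-fold), the trace amine receptor Taar1 (2.88-fold), the G protein gamma subunit Gng2 (2.61-fold) and the G protein inhibitor Rgs16 (2.78-fold). Tiam1, an activator of the GTPase Rac1, rose 2.71-fold, and Dusp5, a phosphatase of ERK kinases, 2.54-fold. Tent5a, a poly(A) polymerase, rose 3.63-fold. Dsn1, a kinetochore protein, rose 3.87-fold at signals of 121, 169, 76.8 and 108 on the 10 mmol/l arrays, against 28.9, 42.2, 26 and 25.2 on the 5 mmol/l arrays. Amigo3, an adhesion protein, and Tmem100, a membrane protein, rose 2.89-fold and 2.53-fold. The redox regulator Txnip, a ChREBP target, and the sterol enzymes Idi1, Hsd17b7, Dhcr7 and Msmo1 made up the rest.

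**Figure D2:**
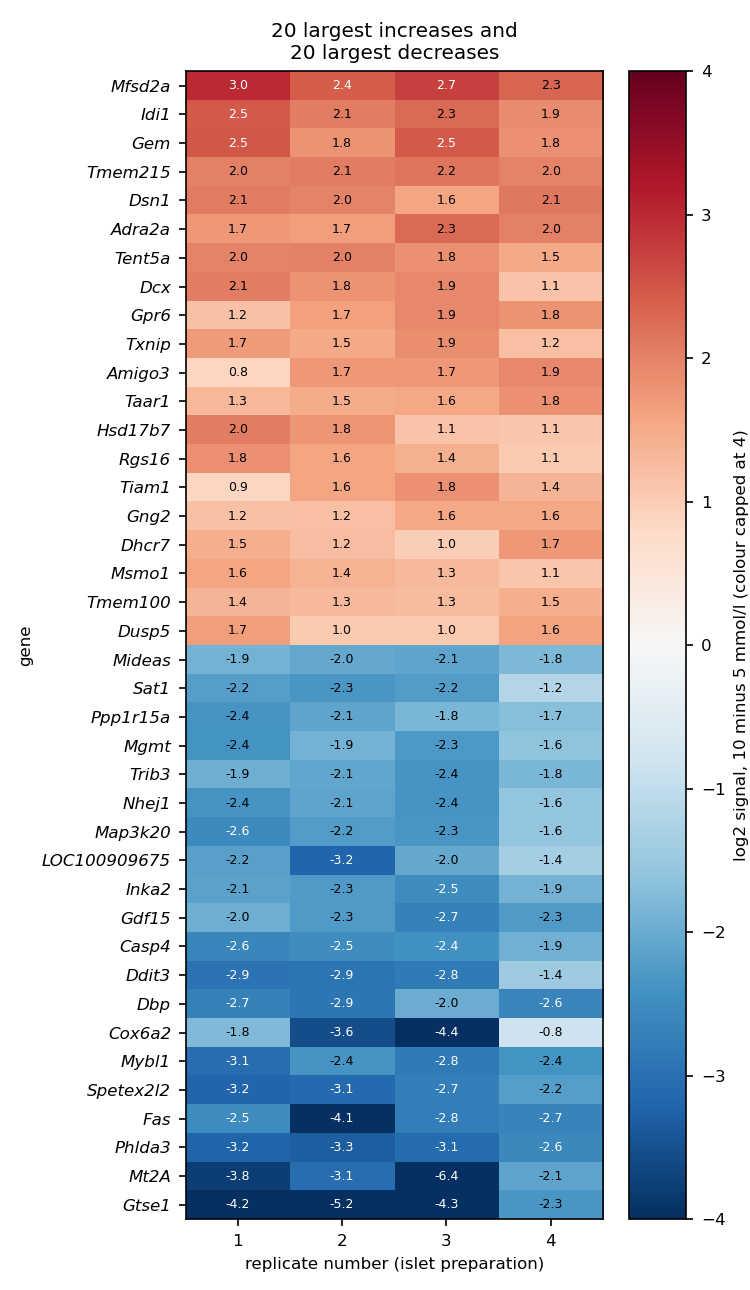
Rows are the 20 genes with the largest increases and the 20 with the largest decreases, columns the 4 islet preparations, and each cell gives the log2 signal at 10 mmol/l minus that at 5 mmol/l within a preparation. All cells keep the direction of the gene's mean, which follows from the choice of genes whose concentrations do not overlap. Preparation 4 has the smallest decrease for Gtse1, Ddit3, Sat1 and several other genes of the lower part.

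The 20 largest decreases were led by genes known as p53 targets and as stress genes. Phlda3, an inhibitor of Akt signalling that p53 induces, had 53.5, 56.6, 39.6 and 78.2 on the 10 mmol/l arrays, against 491, 560.0, 332 and 464 on the 5 mmol/l arrays. This 8.1-fold lower mean came with a log2 change of -3.04 (SE 0.20, limma adjusted p = 2.07e-08). Mgmt, which removes alkyl groups from guanine in DNA, read 184, 203, 183 and 288 on the 10 mmol/l arrays, against 963, 749.5, 896 and 869.9 on the 5 mmol/l arrays. The DNA end-joining factor Nhej1 stood at 64.7, 67, 47.7 and 76.6 on the 10 mmol/l arrays, against 335, 290.5, 247 and 229 on the 5 mmol/l arrays. Neither gene's groups came near each other, and the means were 4.06-fold and 4.3-fold lower at 10 mmol/l (limma adjusted p = 5.76e-08 and 1.48e-07). The metallothionein Mt2A, which binds zinc, had 116, 65.7, 10.8 and 364 on the 10 mmol/l arrays, against 1586, 544, 921 and 1559 on the 5 mmol/l arrays. Its groups were apart, with the 10 mmol/l arrays spread widely, and the log2 change was -3.83 (SE 0.66, limma adjusted p = 0.00037). Mybl1, a transcription factor of the Myb family, fell to 22.4 ± 2.27 at 10 mmol/l, against 142 ± 19.8 at 5 mmol/l (SD, n = 4 each).

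Casp4, an inflammatory caspase, was lower at 10 mmol/l on every array, with 157, 155, 164 and 209.5 on the 10 mmol/l arrays, against 964, 865, 885 and 799.6 on the 5 mmol/l arrays. It was among the genes with the smallest p of the whole comparison (log2 change -2.36, limma adjusted p = 1.23e-09). Map3k20, a kinase that senses ribosome stress, was 4.41-fold lower, and Gdf15, a secreted stress cytokine, 4.84-fold lower. Sat1, which starts the breakdown of polyamines, was 3.66-fold lower with 266, 328, 216 and 632 on the 10 mmol/l arrays, against 1212, 1636, 1011 and 1422 on the 5 mmol/l arrays. Mideas, a subunit of a histone deacetylase complex, and Inka2, an inhibitor of the kinase Pak4, were 3.86-fold and 4.63-fold lower. Spetex2l2 and LOC100909675, for which no role is given here, were 6.85-fold and 4.06-fold lower. Gtse1, a protein of the cell cycle that restrains p53, had 4.9, 2.9, 7.8 and 21.7 on the 10 mmol/l arrays, against 89.8, 122, 157 and 108 on the 5 mmol/l arrays, with 1 array at 10 mmol/l under the floor of 3.4 signal units, to which lower values were set, so no fold is given. Cox6a2, a heart and muscle form of a cytochrome oxidase subunit, had 45.7, 7.8, 2.1 and 55.1 on the 10 mmol/l arrays, against 156, 92, 73.6 and 97.9 on the 5 mmol/l arrays, a wide spread at 10 mmol/l that also reached below the floor. Its limma adjusted p of 0.017 moved past 0.05 without the 10 mmol/l array of preparation 2 (0.0579) or of preparation 3 (0.0667), and with no filter on signal level (0.055).

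**Figure D3:**
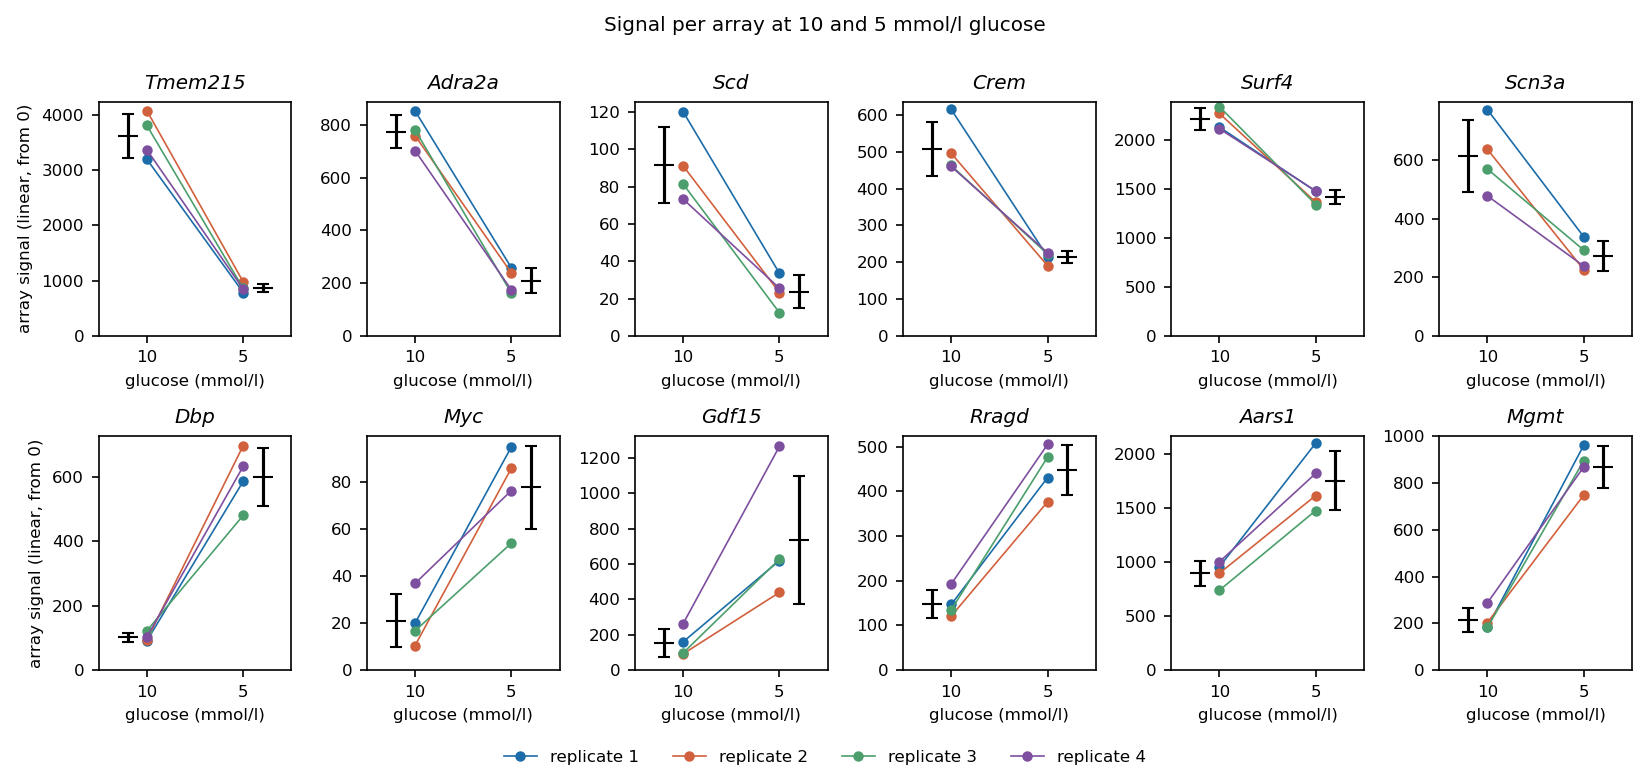
Each panel is a gene, with signal on a linear axis from 0 and the arrays at 10 mmol/l left of those at 5 mmol/l; lines join arrays of the same preparation, and black bars are the mean and SD of 4 arrays. The upper 6 genes were higher and the lower 6 lower at 10 mmol/l in every preparation, with no overlap between the concentrations.

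Enzymes of cholesterol synthesis rose together. Of 8 tested enzymes of the mevalonate pathway, which builds isoprenoid units, 6 rose and 1 fell, against 10.6% and 14.2% of all tested genes, and the median log2 change was 0.73, against -0.01 for all tested genes. Of 9 tested enzymes of the later sterol steps, 6 rose and none fell, with a median of 0.71 (limma). Idi1, which isomerizes the isoprenoid unit, gave 1469.6, 1008, 1075 and 983 on the 10 mmol/l arrays, against 269, 242, 225 and 268 on the 5 mmol/l arrays. Msmo1, a sterol methyl oxidase, had 2039, 1347, 1366 and 1297 on the 10 mmol/l arrays, against 689, 509.6, 556 and 596 on the 5 mmol/l arrays. The 10 mmol/l arrays of both lay well above the 5 mmol/l arrays, at 4.52-fold and 2.57-fold. Mvd, which makes the isoprenoid unit by decarboxylation, had 76.8, 82.1, 68.2 and 76.3 on the 10 mmol/l arrays, against 42.3, 27.3, 40.8 and 6.4 on the 5 mmol/l arrays, and the spread at 5 mmol/l left an SE of 0.41 on its change of 1.69. Acat2 and Fdft1, enzymes at the entry and the branch to sterols, rose by 0.67 and 0.74 on the log2 scale, and Lss, which closes the sterol rings, by 0.82. Pmvk, a kinase of the pathway, was the member that fell, with a log2 change of -0.46 (limma adjusted p = 0.00959).

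Regulators of these enzymes moved less evenly. Of 11 tested genes of sterol control and uptake, 5 rose and 3 fell, with a median log2 change of 0.27. Srebf1 and Srebf2 encode the transcription factors that switch on lipid and sterol enzymes. Srebf1 had 376, 375, 381 and 322 on the 10 mmol/l arrays, against 235, 191, 199.8 and 298 on the 5 mmol/l arrays, a change of 0.67 (limma adjusted p = 0.00253). Srebf2 rose by 0.71 (limma adjusted p = 0.00279), but the mean of its probe sets did not pass (0.217). Insig1, which holds the sterol sensor in the ER and is itself induced by these factors, rose by 1.02 (SE 0.24, limma adjusted p = 0.00528). The sterol regulatory element TCACNCCAC, searched on both strands of RefSeq promoter windows (GRCr8), was in none of the 5 promoters of tested mevalonate genes and none of the 9 of later sterol genes, against 1.12% of all promoters, which says only that these letters are not in those windows.

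Several fatty acid desaturases were higher at 10 mmol/l. Of 13 tested desaturases and elongases, 6 rose and 2 fell, with a median log2 change of 0.30. Scd, a stearoyl-CoA desaturase, had 120.1, 91.1, 81.4 and 73.3 on the 10 mmol/l arrays, against 33.5, 23.2, 12.4 and 25.5 on the 5 mmol/l arrays. Scd2, a further stearoyl-CoA desaturase, had 4845, 4396, 4324 and 4065 on the 10 mmol/l arrays, against 1883, 1940.1, 2094 and 1843 on the 5 mmol/l arrays. Both were higher on all 10 mmol/l arrays, with log2 changes of 2.01 (SE 0.33) and 1.18 (SE 0.08), and limma adjusted p of 0.000221 and 3.97e-08. Fads1 and Fads2, which desaturate polyunsaturated fatty acids, rose by 0.87 and 0.77. Of 9 tested core enzymes of fatty acid synthesis 2 rose, Fasn by 0.73 and Acly by 0.38, and 5 with the preparation number as a block.

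Of 23 tested genes of fatty acid oxidation, 1 rose and 4 fell, against 10.6% and 14.2% of all tested genes, with a median log2 change of -0.03. Hadhb, a subunit of the mitochondrial trifunctional protein, had 1699, 1570.5, 1497 and 1647 on the 10 mmol/l arrays, against 2788, 2734, 2696 and 2408 on the 5 mmol/l arrays. It was lower on every 10 mmol/l array, with a log2 change of -0.73 (SE 0.07, limma adjusted p = 1.53e-06). Acadl, a long-chain acyl-CoA dehydrogenase, Etfa, an electron carrier of these dehydrogenases, and Slc25a20, the carnitine carrier, had changes of -0.58, -0.45 and -0.37. Cpt1a, which passes fatty acids to carnitine, had -0.18 and did not pass (limma adjusted p = 0.237). Among 19 tested genes of phospholipid and triglyceride synthesis 3 rose, Mfsd2a, Lpin1 (0.67), a phosphatidate phosphatase, and Lpcat3 (0.66), which puts polyunsaturated chains into phospholipids, and 3 fell. Pisd, which makes phosphatidylethanolamine in mitochondria, was among the 3 that fell (-0.62). Of 8 tested genes of lipid droplets and lipolysis 2 fell and none rose, among them Hilpda, an inhibitor of lipolysis (-0.58).

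Genes of glucose handling changed in both directions. Among all tested genes 10.6% rose and 14.2% fell (16.2% and 19.8% with the preparation number as a block). Upper glycolysis, with 11 tested genes, had 1 higher and 1 lower, and 2 and 1 with that block. Slc2a2, the glucose transporter of the rat beta cell, had 6594, 8202, 7289 and 6664 on the 10 mmol/l arrays, against 3810.1, 4759, 4398 and 3638 on the 5 mmol/l arrays, with a log2 change of 0.79 (limma adjusted p = 8.92e-06). Of 9 tested genes of lower glycolysis 2 rose and 1 fell, and with the preparation number as a block 4 rose and 1 fell. The 2 were Tpi1 (0.47) and Pgam1 (0.39), both enzymes between aldolase and enolase. Slc16a1, a lactate and pyruvate carrier that healthy beta cells barely express, had 25.4, 30.1, 23.2 and 27.2 on the 10 mmol/l arrays, against 74.8, 61.7, 49.9 and 108 on the 5 mmol/l arrays. Its groups were apart and its change was -1.42 (limma adjusted p = 0.000118), although the mean of its probe sets gave -0.11 (limma adjusted p = 0.862). Of 16 tested genes with known carbohydrate response elements 4 rose and 1 fell, and with the preparation number as a block 6 rose and 2 fell. Mlxipl, which encodes ChREBP, had 98, 98, 80.7 and 69.1 on the 10 mmol/l arrays, against 61.3, 68.8, 68.8 and 52.9 on the 5 mmol/l arrays. Its groups were just apart, yet it did not pass (limma adjusted p = 0.0654, 0.0152 with the preparation number as a block). Its target Pklr, a pyruvate kinase gene, had a log2 change of 0.32 (SE 0.16, limma adjusted p = 0.165). Ldha, another gene kept low in beta cells, had 0.45 (SE 0.29, limma adjusted p = 0.297, 0.0236 with the block).

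Of 28 tested genes of pyruvate entry and the citric acid cycle, 4 rose and 2 fell, against 10.6% and 14.2% of all tested genes, and with the preparation number as a block 6 rose and 5 fell. Of 35 tested genes of the respiratory chain and ATP synthase, 4 rose and 4 fell, with a median log2 change of -0.02, and 7 and 7 with that block. Without the 5 mmol/l array of preparation 1 the respiratory count was 6 and 2, without that of preparation 4 it was 4 and 2, and without the 10 mmol/l array of preparation 3 it was 3 and 2. Mdh1, the cytosolic malate dehydrogenase of the malate-aspartate shuttle, rose by 0.54, and Ogdh, which acts on 2-oxoglutarate, by 0.60. Idh3b and Sdhd, subunits of the NAD-linked isocitrate dehydrogenase and of succinate dehydrogenase, had changes of -0.44 and -0.39, and Idh2, the NADP-linked mitochondrial form, of -0.54. Pdk4, a kinase that shuts pyruvate entry, had a change of 0.26 that did not pass (limma adjusted p = 0.195, 0.00901 with the block). Proteins of the mitochondrial ribosome leaned to 1 side: of 34 tested, 15 fell and 1 rose, with a median log2 change of -0.24. Mrps5 had 234, 226, 232 and 296 on the 10 mmol/l arrays, against 384, 383, 406 and 482 on the 5 mmol/l arrays. Mrpl15 had 519, 420.1, 402 and 618 on the 10 mmol/l arrays, against 838, 700.2, 715 and 898 on the 5 mmol/l arrays. In both, each 10 mmol/l array lay below each 5 mmol/l array, with changes of -0.75 and -0.70 (limma adjusted p = 0.000113 and 0.000673). Mrps35 and Mrpl44 had changes of -0.71 and -0.53. Mrpl17 was the member that rose, by 0.44 (limma adjusted p = 0.000797). By contrast, 1 of 24 tested cytosolic ribosomal proteins rose and none fell, with a median of 0.07; that count was 7 and 0 with the preparation number as a block, and 1 and 5 after quantile normalization. Leaving out the 10 mmol/l array of preparation 1 gave 4 and 0, and the 5 mmol/l array of preparation 2 gave 2 and 0.

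**Figure D4:**
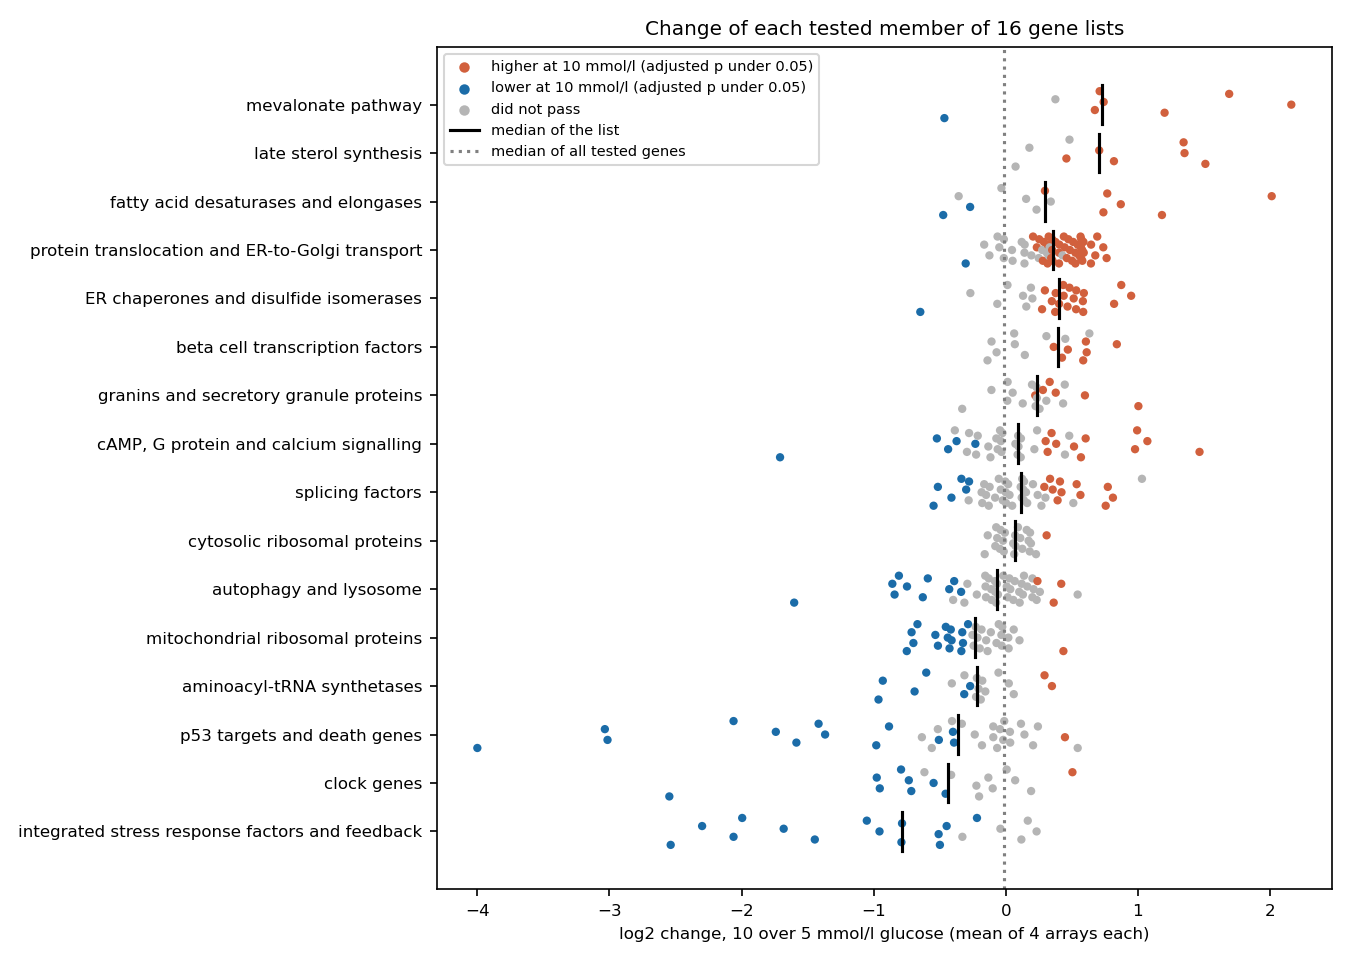
Each point is a tested member of 1 of 16 gene lists, placed by its log2 change, 10 over 5 mmol/l; orange and blue points passed the test as higher and lower, grey points did not, the black bar is the list's median and the dotted line the median of all tested genes (-0.01). Sterol and transport lists lie to the right, and mitochondrial ribosomal proteins, p53, clock and stress response lists to the left.

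Most genes of the integrated stress response, the programme by which phosphorylation of eIF2 slows translation and raises the transcription factors ATF4 and CHOP, were lower at 10 mmol/l. Of 19 tested factors and feedback genes 14 fell and none rose, with a median log2 change of -0.79. Ddit3, which encodes CHOP, had 224, 198, 226 and 614 on the 10 mmol/l arrays, against 1718, 1503, 1606 and 1676 on the 5 mmol/l arrays. The 10 mmol/l array of preparation 4 was the highest of its group and still under every 5 mmol/l array. Trib3, a pseudokinase that CHOP induces, had 321, 267, 186 and 313 on the 10 mmol/l arrays, against 1233, 1139, 963 and 1118 on the 5 mmol/l arrays. Cebpb, a partner of ATF4, had 207, 240.3, 153 and 185 on the 10 mmol/l arrays, against 536, 501, 438 and 658 on the 5 mmol/l arrays. Their log2 changes were -2.54, -2.06 and -1.45 (limma adjusted p = 3.6e-06, 5.98e-08 and 1.14e-06). Ppp1r15a, which directs the removal of the phosphate from eIF2, was 3.95-fold lower, and Eif4ebp1, a brake on cap-dependent translation, 1.72-fold lower. Vldlr, a lipoprotein receptor, was 2.07-fold lower. Atf4 itself had a change of -0.22 (limma adjusted p = 0.0203), a call that ended without the 10 mmol/l array of preparation 2 or 3 (0.0603 and 0.0771), without the 5 mmol/l array of preparation 4 (0.0583) and with no filter on signal level (0.0547).

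Enzymes that load amino acids on tRNA are a further set of genes that ATF4 is known to drive. Of 19 tested cytosolic tRNA synthetases 6 fell and 2 rose, with a median log2 change of -0.22, and with the preparation number as a block 11 fell and 2 rose. Without the 5 mmol/l array of preparation 1 the count was 5 and 0, and without the 10 mmol/l array of preparation 4 it was 4 and 1. Aars1, the alanine enzyme, had 954, 895, 738 and 1001 on the 10 mmol/l arrays, against 2100.3, 1616, 1476 and 1820.2 on the 5 mmol/l arrays. Yars1, the tyrosine enzyme, had 1169.9, 1173, 992 and 1020.0 on the 10 mmol/l arrays, against 1706, 1775, 1689.8 and 1839.7 on the 5 mmol/l arrays. Mars1, the methionine enzyme, had 926, 794, 742 and 739 on the 10 mmol/l arrays, against 1254, 1216, 1207 and 1164 on the 5 mmol/l arrays. For all 3 the groups were apart, with log2 changes of -0.96, -0.69 and -0.60 (limma adjusted p = 2.41e-05, 1.96e-06 and 4.28e-05). Sars1, the serine enzyme, was 1.9-fold lower.

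The promoters of these 3 genes are shown because they share a short motif known to bind factors of the C/EBP and ATF families, TTGCATCA, searched on both strands in RefSeq windows of the GRCr8 build that run from 250 bases before to 50 after a gene's start. It occurred in 7 of 17 promoters of tested tRNA synthetase genes (41.2%), against 0.795% of all 33469 promoters of that length. The 7 genes were Aars1, Mars1 and Yars1, which fell, Tars1, which rose, and Iars1, Nars1 and Cars1, which did not pass the test. Of 18 promoters of the stress response list, 4 held it. Matches say nothing of binding in these islets. The strand given is that of the gene, the sequences run 5′ to 3′, and capitals mark the motif or its reverse complement.
Aars1 (GRCr8, chr19:55908232-55908531, plus strand): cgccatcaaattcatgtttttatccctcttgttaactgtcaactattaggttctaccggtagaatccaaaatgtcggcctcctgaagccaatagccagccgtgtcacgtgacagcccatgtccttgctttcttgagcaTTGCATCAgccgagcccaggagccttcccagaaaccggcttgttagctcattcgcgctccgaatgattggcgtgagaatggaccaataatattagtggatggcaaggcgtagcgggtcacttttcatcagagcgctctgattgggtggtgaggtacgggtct
Yars1 (GRCr8, chr5:146819913-146820212, plus strand): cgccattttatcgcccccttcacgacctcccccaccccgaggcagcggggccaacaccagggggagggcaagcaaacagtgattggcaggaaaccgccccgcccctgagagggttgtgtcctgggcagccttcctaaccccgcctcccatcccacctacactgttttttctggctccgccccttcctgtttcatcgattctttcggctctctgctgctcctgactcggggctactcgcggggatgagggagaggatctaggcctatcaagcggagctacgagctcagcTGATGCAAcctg
Mars1 (GRCr8, chr7:65023704-65024003, minus strand): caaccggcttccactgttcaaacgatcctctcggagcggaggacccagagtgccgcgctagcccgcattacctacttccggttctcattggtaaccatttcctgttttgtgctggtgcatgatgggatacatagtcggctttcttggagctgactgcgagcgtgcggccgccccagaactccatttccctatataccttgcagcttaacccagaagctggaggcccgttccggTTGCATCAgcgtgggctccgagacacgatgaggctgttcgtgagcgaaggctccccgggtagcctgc

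Amino acid metabolism around these genes did not move as a block. Of 13 tested genes of serine, glycine, one-carbon and asparagine synthesis 3 rose and 5 fell, and leaving out the 5 mmol/l array of preparation 2, or the 10 mmol/l array of preparation 3 or 4, gave 2 and 3. Mthfd2, a mitochondrial folate enzyme, had a change of -0.51, whereas Aldh1l2, which acts in the same folate pathway, rose by 0.76 (limma adjusted p = 0.00112 and 0.000488). Slc3a2, the heavy chain of several amino acid exchangers, was 1.38-fold lower, while Slc16a10, a carrier of aromatic amino acids, was 1.54-fold higher. Oat, which links ornithine and glutamate, had 195, 252, 167 and 204 on the 10 mmol/l arrays, against 86.3, 95.2, 98.3 and 110.5 on the 5 mmol/l arrays. Aass, which starts lysine breakdown, had 1991, 1891, 1788 and 1314 on the 10 mmol/l arrays, against 979, 849, 944 and 617 on the 5 mmol/l arrays. Both were higher on every 10 mmol/l array (log2 changes 1.06 and 1.05).

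Machinery that carries new proteins from the ER to the Golgi gave the most one-sided large list. Of 61 tested genes of translocation into the ER, of COPII and COPI coats and of vesicle tethers, 41 rose and 1 fell, against 10.6% and 14.2% of all tested genes. The median log2 change was 0.35 (0.30 after quantile normalization). In the brightest of 10 equal bins of tested probe sets, 492 of 1863 were called higher and 292 lower. No list was set against genes of like signal. Leaving out any single array of the comparison left between 37 and 40 higher members. Leaving out 1 preparation left 29 to 39, and other settings gave 29 to 47. Sec23b, a subunit of the COPII coat that leaves the ER, had 2648, 2776, 2701 and 2304 on the 10 mmol/l arrays, against 1688, 1564, 1523 and 1371 on the 5 mmol/l arrays. Surf4, a cargo receptor for secreted proteins, had 2135, 2275, 2345 and 2118 on the 10 mmol/l arrays, against 1478, 1368, 1343 and 1482 on the 5 mmol/l arrays. Kdelr2, which returns escaped chaperones to the ER, had 2576, 2589, 2710.4 and 2508 on the 10 mmol/l arrays, against 1835, 1748, 1652 and 1714 on the 5 mmol/l arrays. In each case the lowest 10 mmol/l array was above the highest 5 mmol/l array, and the log2 changes of 0.76, 0.65 and 0.58 had SEs of 0.08, 0.07 and 0.06 (limma adjusted p = 3.76e-06, 1.83e-06 and 4.21e-06). The tether Uso1 rose by 0.57, the SNARE Bet1 by 0.56, the SNARE regulator Scfd1 by 0.70, the GTPase Arf4 by 0.53, and the COPI coat subunits Copa and Copb2 by 0.59 and 0.64. A further COPI subunit, Arcn1, was the 1 member that fell, with a log2 change of -0.30 (limma adjusted p = 0.0233). Its call ended without the 10 mmol/l array of preparation 3 or 4 (limma adjusted p = 0.0863 and 0.0726), without the 5 mmol/l array of preparation 1 or 2 (0.0702 and 0.0548), and for the mean of its probe sets (0.0858).

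ER folding genes rose with it. Of 27 tested chaperones and disulfide isomerases 19 rose and 1 fell, with a median log2 change of 0.40 (0.30 after quantile normalization). Txndc5, a disulfide isomerase, had 1547, 1536, 1566 and 1542 on the 10 mmol/l arrays, against 933, 646, 786 and 871 on the 5 mmol/l arrays. Fkbp11, a prolyl isomerase of secretory cells, had 898, 839.5, 1041 and 960.1 on the 10 mmol/l arrays, against 580.5, 527, 436 and 499 on the 5 mmol/l arrays. Creld2, a secreted ER stress protein, had 895, 989.9, 1256 and 1115 on the 10 mmol/l arrays, against 602, 542, 638 and 614 on the 5 mmol/l arrays. These 3 rose by 0.95, 0.87 and 0.82 with no overlap between the concentrations (limma adjusted p = 1.96e-06, 1.41e-05 and 0.000101). Xbp1, a transcription factor of the unfolded protein response, had a change of 0.19 (limma adjusted p = 0.0409), a call that ended after quantile normalization (0.653), without the 10 mmol/l array of preparation 2, 3 or 4 and without the 5 mmol/l array of preparation 1, 2 or 3 (up to 0.114). Dnajc3, an inhibitor of the eIF2 kinase PERK, rose by 0.51, and Pdia6 by 0.47. Txndc12, an ER thioredoxin, fell, with a log2 change of -0.65. The major chaperone gene Hspa5 had 7386, 8257, 8278 and 8481 on the 10 mmol/l arrays, against 6658, 7855, 6973 and 6923 on the 5 mmol/l arrays, which did not pass (limma adjusted p = 0.0541), although it did with the preparation number as a block (0.00604). After quantile normalization the limma adjusted p of Hspa5 was 0.701, and its log2 change ran from -0.028 to 0.24 over the settings tried. ER-associated degradation went both ways, with 4 of 20 tested genes higher and 5 lower: Edem2, which directs misfolded glycoproteins to degradation, rose 2.46-fold, whereas the ubiquitin enzyme Ube2j1 and the ligase adaptor Sel1l were 2.12-fold and 2.08-fold lower, and Herpud1 1.42-fold lower.

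Promoters of Creld2, Dnajc3, Copa and Copb2 are printed because their genes rose and because each holds a motif of the unfolded protein response. The ER stress response element, CCAAT and CCACG with 9 bases between them on either strand, was in 7 of 24 promoters of tested chaperone genes (29.2%), against 0.0657% of all promoters: those of Calr, Canx, Creld2, Dnajc3, Ero1b, Hsp90b1 and Hspa5, of which 4 rose and none fell. In the whole chaperone list 19 of 27 tested genes rose and 1 fell. The core TGACGTGG, known to bind XBP1 and ATF6, was in 7 of 54 promoters of the transport list (13.0%), against 0.595% of all, with 3 of those 7 genes higher and none lower. In the whole transport list 41 of 61 tested genes rose and 1 fell. The core was also in 2 of 24 chaperone promoters (8.33%), those of Dnajc10 and Hyou1, and both genes rose. Chaperone genes with the ER stress response element, and transport genes with the core, were not called higher more often than their list. In the lines below, capitals mark the first of these motifs in Creld2 and Dnajc3 and the second in Copa and Copb2.
Creld2 (GRCr8, chr7:121789134-121789433, plus strand): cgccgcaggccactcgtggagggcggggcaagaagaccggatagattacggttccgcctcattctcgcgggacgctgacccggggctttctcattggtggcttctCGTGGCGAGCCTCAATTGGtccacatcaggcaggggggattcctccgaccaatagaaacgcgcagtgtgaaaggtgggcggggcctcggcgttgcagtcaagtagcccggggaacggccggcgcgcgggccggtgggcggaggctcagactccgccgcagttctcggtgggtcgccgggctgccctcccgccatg
Dnajc3 (GRCr8, chr15:102432417-102432716, plus strand): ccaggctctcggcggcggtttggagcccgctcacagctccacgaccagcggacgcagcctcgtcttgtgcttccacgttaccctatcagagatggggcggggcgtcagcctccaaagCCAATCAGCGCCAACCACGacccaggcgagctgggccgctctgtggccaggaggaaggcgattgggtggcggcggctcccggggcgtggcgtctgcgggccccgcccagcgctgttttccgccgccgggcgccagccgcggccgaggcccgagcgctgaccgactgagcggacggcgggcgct
Copa (GRCr8, chr13:87078618-87078917, plus strand): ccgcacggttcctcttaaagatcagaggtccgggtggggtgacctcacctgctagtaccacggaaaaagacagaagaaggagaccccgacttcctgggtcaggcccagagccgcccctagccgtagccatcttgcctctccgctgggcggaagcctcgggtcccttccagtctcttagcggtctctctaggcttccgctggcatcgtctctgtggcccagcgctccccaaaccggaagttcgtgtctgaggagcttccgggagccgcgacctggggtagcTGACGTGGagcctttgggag
Copb2 (GRCr8, chr8:108040437-108040736, plus strand): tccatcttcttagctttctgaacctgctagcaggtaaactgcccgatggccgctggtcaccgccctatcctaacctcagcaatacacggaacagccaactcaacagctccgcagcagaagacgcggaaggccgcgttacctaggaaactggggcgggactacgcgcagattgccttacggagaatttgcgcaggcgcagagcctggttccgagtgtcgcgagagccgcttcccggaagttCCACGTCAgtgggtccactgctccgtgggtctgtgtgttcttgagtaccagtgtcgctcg

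Transcripts of the hormones themselves differed by small amounts. Ins1 had 9069, 11424, 9235 and 8702 on the 10 mmol/l arrays, against 7586, 9259.6, 8442 and 7844 on the 5 mmol/l arrays. Gcg had 10198, 13698, 12113 and 11667 on the 10 mmol/l arrays, against 8980.1, 11412, 10336 and 9121 on the 5 mmol/l arrays. The concentrations overlapped for both, with log2 changes of 0.21 (SE 0.09) and 0.26 (SE 0.10) and limma adjusted p of 0.127 and 0.0724, while Ins2 had 0.23 and 0.174. With the preparation number as a block all 3 passed, at 0.0238, 0.0026 and 0.0354, and each was higher at 10 mmol/l in 4 of 4 preparations. Other settings gave log2 changes from -0.083 to 0.265 for Ins1, from -0.054 to 0.33 for Gcg and from 0.038 to 0.303 for Ins2. The sign for Ins1 and Gcg thus depended on the processing. After quantile normalization Gcg and Ins2 had limma adjusted p of 0.368 and 0.812. Of 13 tested hormones and peptides 4 rose and none fell, 11 rose with the preparation number as a block, and 1 rose after quantile normalization, where the median log2 change was 0.25 in place of 0.35. Iapp, the amyloid peptide co-released with insulin, and Sst, somatostatin, were among the 4, at 0.38 and 0.35; after quantile normalization neither passed (limma adjusted p = 0.487 and 0.155). The summed signals of beta, alpha and delta cell markers given above, higher at 10 mmol/l, include Ins1, Ins2, Iapp, Gcg and Sst themselves. Those sums are thus no separate measure, and any part of cell composition in these differences was not tested.

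Granule and release genes included larger changes. Of 20 tested granule proteins 6 rose and none fell, against 10.6% and 14.2% of all tested genes. With the preparation number as a block 12 rose and none fell, against 16.2% and 19.8% of all tested genes. Sytl4, or granuphilin, which docks insulin granules, had 1424, 1652, 1119 and 1159.9 on the 10 mmol/l arrays, against 742, 875, 569.9 and 509.7 on the 5 mmol/l arrays, and a log2 change of 1.00 (limma adjusted p = 0.000369). Ptprn2, a granule membrane protein, rose by 0.60, and Scg3, a granin of the granule matrix, by 0.38, while Chgb, another granin, did not pass (0.24, limma adjusted p = 0.101, 0.00386 with the block). Of 27 tested SNARE and exocytosis genes 4 rose and 3 fell, near the shares of all tested genes. With the preparation number as a block 8 rose and 3 fell, against the same 16.2% and 19.8%. Snap25, a SNARE of the plasma membrane, had 3786, 4028, 3983 and 3932 on the 10 mmol/l arrays, against 2415, 2623, 2404 and 2522 on the 5 mmol/l arrays. Its limma adjusted p was 2.35e-06 for a change of 0.66 (SE 0.07). Syt13, an atypical synaptotagmin, rose by 0.77.

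Transcription factors of the beta cell rose in 7 of 16 tested genes and fell in none, with a median log2 change of 0.39. Mafa, an activator of the insulin gene, had 3699.6, 4556, 3957 and 3404 on the 10 mmol/l arrays, against 2514, 2813, 2409.8 and 2478 on the 5 mmol/l arrays. Hnf4a, whose mutation causes a monogenic diabetes in humans, had 308, 232, 316 and 262 on the 10 mmol/l arrays, against 151, 119.7, 169 and 189 on the 5 mmol/l arrays. The groups of both were apart, with changes of 0.61 and 0.84 (limma adjusted p = 0.000493 and 0.000315). Nkx2-2, Pax6 and St18, factors of endocrine cell identity, rose by 0.59, 0.43 and 0.61. Pdx1 had 463, 753, 587 and 464 on the 10 mmol/l arrays, against 541, 723, 572 and 623 on the 5 mmol/l arrays and did not pass (limma adjusted p = 0.575).

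Excitability genes changed in both directions. Of 35 tested channel genes 7 rose and 3 fell, against 10.6% and 14.2% of all tested genes. Their median log2 change was 0.20, and 24 of the 35 had a change above 0. Scn3a, a sodium channel of islet cells, had 772, 637, 569.5 and 478 on the 10 mmol/l arrays, against 338, 226, 293 and 238 on the 5 mmol/l arrays. Rem2, like Gem a GTPase that holds back calcium channels, had 507, 520.3, 547 and 552 on the 10 mmol/l arrays, against 250.0, 267, 265 and 369 on the 5 mmol/l arrays. Cacna1c, the pore subunit of an L-type calcium channel, had 132, 146, 187 and 171 on the 10 mmol/l arrays, against 258, 278, 289.8 and 239 on the 5 mmol/l arrays. All 3 had groups apart: Scn3a and Rem2 rose by 1.16 and 0.90, and Cacna1c had a change of -0.75 (limma adjusted p = 1.28e-05, 0.0001 and 0.000235). The calcium pump gene Atp2a2 rose by 0.63, although the mean of its probe sets did not pass (limma adjusted p = 0.269). The subunits of the ATP-sensitive potassium channel did not pass, with changes of 0.27 for Kcnj11 and 0.13 for Abcc8 (limma adjusted p = 0.138 and 0.602); with the preparation number as a block Kcnj11 did (0.0167).

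Of 24 tested receptor genes 7 rose and 2 fell, against 10.6% and 14.2% of all tested genes, with a median log2 change of 0.06. Ntrk2, a receptor of neurotrophins, rose 2.09-fold, Prlr, the prolactin receptor, 1.73-fold, and P2ry1, a receptor for ADP, 1.43-fold. Sstr3, a somatostatin receptor, had 254, 217, 272 and 239 on the 10 mmol/l arrays, against 426, 422, 414 and 407 on the 5 mmol/l arrays, a 1.7-fold lower mean at 10 mmol/l. Glp1r, the receptor for the incretin GLP-1, had 450.2, 361, 346 and 299 on the 10 mmol/l arrays, against 532, 455, 388 and 299 on the 5 mmol/l arrays, and its groups overlapped (limma adjusted p = 0.456). Gipr, the receptor for the incretin GIP, had a change of 0.35 (limma adjusted p = 0.0381), a call that ended without the 10 mmol/l array of preparation 1 or 3 (0.106 and 0.128), without the 5 mmol/l array of preparation 1 or 4 (0.0899 and 0.114) and with centring on the median of all probe sets (0.156). Of 39 tested genes of cAMP, G protein and calcium signalling 11 rose and 5 fell, against the same shares, with a median log2 change of 0.09. Pde10a, a phosphodiesterase, rose 1.98-fold, Rgs2, an inhibitor of G proteins, 2.08-fold, and Plcxd3, a phospholipase-like protein, 1.52-fold.

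Of 31 tested early response genes 5 rose and 3 fell, against 10.6% and 14.2% of all tested genes, with a median log2 change of 0.09. Crem, whose short form represses cAMP targets, had 615, 496, 462 and 459.9 on the 10 mmol/l arrays, against 215, 190.4, 222 and 226 on the 5 mmol/l arrays. Sik1, a kinase that restrains CREB coactivators, had 100.1, 105, 90.3 and 99.2 on the 10 mmol/l arrays, against 17.6, 20.1, 36.6 and 49.1 on the 5 mmol/l arrays. Myc, a transcription factor of cell growth, had 19.9, 10.4, 16.7 and 36.9 on the 10 mmol/l arrays, against 95.1, 86, 54.1 and 76.5 on the 5 mmol/l arrays. Crem and Sik1 rose by 1.25 and 1.80, and Myc had a change of -2.01 (limma adjusted p = 1.04e-07, 0.000216 and 9.76e-05), with no overlap in any of the 3. Nr4a1, an orphan nuclear receptor, had a change of 0.63 that did not pass (limma adjusted p = 0.0692, 0.046 with the preparation number as a block and 0.0267 without the 10 mmol/l array of preparation 4). Fos rose by 1.51, but the mean of its probe sets did not pass (limma adjusted p = 0.114). The full cAMP response element, TGACGTCA, which reads the same on both strands, was in 7 of 25 promoters of tested genes of this list (28.0%), against 1.83% of all promoters; Crem was the only one of those genes called, and 1 of its 3 RefSeq promoters is shown for it, with the element in capitals.
Crem (GRCr8, chr17:58984547-58984846, plus strand): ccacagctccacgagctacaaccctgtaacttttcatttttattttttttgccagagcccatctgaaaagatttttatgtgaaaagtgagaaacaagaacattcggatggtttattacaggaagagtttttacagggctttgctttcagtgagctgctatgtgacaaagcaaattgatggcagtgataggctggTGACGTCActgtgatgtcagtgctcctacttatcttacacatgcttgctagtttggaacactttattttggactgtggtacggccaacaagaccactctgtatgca

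Several clock genes were lower. Of 18 tested clock genes 8 fell, 1 rose and 9 did not pass, with a median log2 change of -0.43. Dbp, an output gene of the clock, had 90.8, 93.8, 122 and 102 on the 10 mmol/l arrays, against 586, 696, 480.2 and 632 on the 5 mmol/l arrays. Nr1d2, a nuclear receptor that represses Bmal1, had 839.9, 784, 844 and 958 on the 10 mmol/l arrays, against 1487, 1830.4, 1761 and 1668 on the 5 mmol/l arrays. Hlf, of the same family of factors as Dbp, had 173, 206, 145 and 178 on the 10 mmol/l arrays, against 320.2, 357, 332 and 342 on the 5 mmol/l arrays. All 3 were lower on every 10 mmol/l array, with changes of -2.55, -0.98 and -0.95 (limma adjusted p = 7.15e-08, 3.8e-07 and 8.88e-05). Per2 had a change of -0.72, with the mean of its probe sets at -0.41 (limma adjusted p = 0.427). Both groups were cultured for 18 h, and the clock time of harvest is not given in the labels.

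Targets of p53 that changed were nearly all lower. Of 34 tested p53 targets and death genes 13 fell and 1 rose, with a median log2 change of -0.36. Mdm2, the ligase that removes p53, had 359, 267, 290.0 and 357 on the 10 mmol/l arrays, against 890.4, 806, 721 and 849.9 on the 5 mmol/l arrays. Aen, a nuclease that p53 induces, had 242, 216, 179 and 237 on the 10 mmol/l arrays, against 564, 589, 586 and 581 on the 5 mmol/l arrays. Each of these had groups apart (log2 changes -1.37 and -1.42; limma adjusted p = 1.53e-07 and 3.53e-07). Ccng1 and Cdkn1a, a cyclin and an inhibitor of cyclin kinases, were 1.83-fold and 1.97-fold lower, and the death receptor Fas 7.52-fold lower. Among 31 tested genes of oxidative stress 3 rose and 5 fell, against 10.6% and 14.2% of all tested genes, with a median log2 change of -0.04. With the preparation number as a block 5 rose and 11 fell. Without the 5 mmol/l array of preparation 2 or 3 there were 1 and 5, and 1 and 7. Hmox1, which degrades haem, had 496, 268, 121 and 171 on the 10 mmol/l arrays, against 1050.1, 840.1, 426 and 742 on the 5 mmol/l arrays, overlapping groups, with a log2 change of -1.67 (SE 0.37, limma adjusted p = 0.00317). Nfe2l2, which encodes the regulator NRF2, was 1.45-fold lower, and of the metallothionein genes Mt2A fell, as given above, while Mt1 had a change of -0.86 that did not pass (limma adjusted p = 0.0527, 0.0296 with that block). Tyms, which makes thymidylate, and Rb1, the retinoblastoma gene, were 2.32-fold and 1.96-fold lower, while the cyclin Ccnd2 had 3249, 2798, 2376 and 3000.2 on the 10 mmol/l arrays, against 3196, 2301, 2724 and 3199 on the 5 mmol/l arrays and a limma adjusted p of 0.986. Ccnd1, a further cyclin, had a change of 0.12 that did not pass (limma adjusted p = 0.534).

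Several genes of lysosomal nutrient signalling were lower. TFE3 is a factor of lysosomal genes that folliculin, its FNIP partners and the Rag GTPases hold in the cytosol when nutrients are plentiful. Rragd, a Rag GTPase and a known target of these factors, had 147, 121, 135 and 193 on the 10 mmol/l arrays, against 431, 377, 477 and 505 on the 5 mmol/l arrays. Tfe3 had 164, 127, 123 and 168 on the 10 mmol/l arrays, against 276, 233, 286 and 242 on the 5 mmol/l arrays. Flcn, folliculin, had 518, 502, 631 and 636 on the 10 mmol/l arrays, against 920.1, 947, 981 and 971 on the 5 mmol/l arrays. Their changes were -1.60, -0.84 and -0.75 (limma adjusted p = 3.83e-07, 9.58e-05 and 0.000516), with every 10 mmol/l array under every 5 mmol/l array. Atp6v1d, a subunit of the lysosomal proton pump, was 1.75-fold lower, and Fnip2, a folliculin partner, 1.81-fold lower, although the mean of the Fnip2 probe sets did not pass (limma adjusted p = 0.0679). The wider list of 47 tested autophagy and lysosome genes had 3 higher and 10 lower, with a median log2 change of -0.07, and 6 higher and 15 lower with the preparation number as a block. The CLEAR box TCACGTGA, a palindrome known from lysosomal genes, was in 5 of 38 promoters of the list (13.2%), against 0.777% of all, with 1 of those 5 genes lower and none higher.

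RNA processing and protein turnover showed smaller shifts. Of 48 tested splicing factors 11 rose and 6 fell, against 10.6% and 14.2% of all tested genes, with a median log2 change of 0.12. Without the 10 mmol/l array of preparation 1 there were 7 and 6, and without the 5 mmol/l array of preparation 2 there were 7 and 5. With the preparation number as a block 16 rose and 8 fell, against 16.2% and 19.8% of all tested genes. Srsf1, a serine-arginine splicing factor, had 800.1, 647, 791 and 638 on the 10 mmol/l arrays, against 465, 392, 499.5 and 353 on the 5 mmol/l arrays. Srsf2 had 1159, 838, 1087 and 1058 on the 10 mmol/l arrays, against 670.2, 484, 616 and 656 on the 5 mmol/l arrays. Hnrnpa2b1, an RNA-binding protein, had 1169.6, 1575, 1589.8 and 1611 on the 10 mmol/l arrays, against 653, 955, 1028 and 776 on the 5 mmol/l arrays. All 3 were higher on each 10 mmol/l array (log2 changes 0.76, 0.77 and 0.81; limma adjusted p = 0.00034, 0.000443 and 0.000584). Of 43 tested genes of ribosome biogenesis and translation 1 rose and 9 fell, and 4 rose and 15 fell with the preparation number as a block; Eif4b, a helper of the translation helicase, was 1.5-fold lower. Of 38 tested proteasome subunits 5 rose and 2 fell, 9 and 4 with that block, with Psmd12, of the regulatory particle, 1.51-fold higher. Hspa9, a mitochondrial chaperone, was 1.73-fold lower. Krt7, a keratin of duct cells, was also lower, with 948, 922, 963 and 1069.9 on the 10 mmol/l arrays, against 1482, 1407, 1610.4 and 1576 on the 5 mmol/l arrays; it was the only 1 of 6 tested duct markers to pass.

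Whether the change between 10 and 5 mmol/l differed from the neighbouring steps was tested within the same model. The comparisons share arrays, which the model takes into account. Set against the change between 5 and 2 mmol/l, 868 probe sets differed (4.66%), 365 (1.96%) with the higher and 503 (2.7%) with the lower value for the change between 10 and 5 mmol/l. Counted as genes these were 597 or 5.84%, of which 235 (2.3%) were higher and 362 (3.54%) lower. Leaving out the 5 mmol/l arrays of preparations 1, 2 or 4 gave 500, 522 and 533 probe sets, and the preparation number as a block gave 2094. Set against the change between 30 and 10 mmol/l, 1317 probe sets differed (7.07%), 602 higher (3.23%) and 715 lower (3.84%). Counted as genes these were 875 or 8.56%, with 356 higher (3.48%) and 519 lower (5.08%). Without the 10 mmol/l arrays of preparations 2 or 3 there were 815 and 729, and with the block 2980. With each array centred on the median of all its probe sets, the splits were 173 higher and 561 lower against the lower step, and 271 higher and 806 lower against the upper step.

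For some genes the interval from 5 to 10 mmol/l held most of the change. Tmem215 had mean signals of 786 ± 138, 867 ± 80.7, 3615 ± 402 and 3498 ± 268 at 2, 5, 10 and 30 mmol/l (SD, n = 4 each). The change between 10 and 5 mmol/l exceeded that between 5 and 2 mmol/l by 1.90 on the log2 scale (limma adjusted p = 1.96e-05) and that between 30 and 10 mmol/l by 2.10 (limma adjusted p = 4.01e-06). Dcx averaged 229.8, 239, 799 and 549.7 in the same order, so that its highest mean was at 10 mmol/l, with differences of 1.67 and 2.25 (limma adjusted p = 0.00034 and 1.13e-05). St6gal1, a sialyltransferase of the Golgi, averaged 416, 571, 1067 and 846, and Tmem184c, a membrane protein, 190.2, 217, 522 and 376. For these 2 the difference from the upper step was 1.23 and 1.74 (limma adjusted p = 1.87e-05 and 1.03e-05).

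On the falling side, Casp4 averaged 868 ± 145, 879 ± 67.8, 172 ± 25.5 and 339 ± 47.8 over the 4 concentrations (SD, n = 4 each). Its lowest mean was at 10 mmol/l, and the change differed from both neighbouring steps, by -2.39 and -3.35 (limma adjusted p = 1.33e-05 and 7.83e-08). Tmem62, a membrane protein, had means of 892, 947, 357 and 507, and LOC100912041, for which no role is given here, 1875, 1637, 459.9 and 719. Angptl8, a secreted regulator of lipoprotein lipase, averaged 612, 635, 205 and 496, and Stbd1, which tethers glycogen to membranes, 252, 238, 64.1 and 109. All 4 had a lower mean at 10 mmol/l than at 5 mmol/l and a higher one at 30 mmol/l than at 10 mmol/l. The differences from the upper step were -1.92, -2.48, -2.94 and -2.65 (limma adjusted p = 3.15e-06, 7.83e-08, 2.19e-07 and 1.71e-05).

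Sec23b, of the vesicle coat, and Crem had higher means at 30 than at 10 mmol/l. Sec23b averaged 1868, 1536, 2607 and 3319 at 2, 5, 10 and 30 mmol/l, a difference from the lower step of 1.04 (limma adjusted p = 0.000425) and from the upper step of 0.41 (limma adjusted p = 0.0949). Crem averaged 263, 213, 508 and 993, with a difference of 1.55 from the lower step (limma adjusted p = 7.03e-05) and of 0.27 from the upper one (limma adjusted p = 0.395). In the transport list the median log2 change was 0.35 for 10 over 5 mmol/l, 0.05 for 5 over 2 mmol/l and 0.23 for 30 over 10 mmol/l. For the stress response list the same medians were -0.79, -0.09 and 0.17, for p53 targets -0.36, -0.09 and 0.00, for mitochondrial ribosomal proteins -0.24, -0.02 and 0.05, and for the mevalonate pathway 0.73, -0.15 and 0.06. The differences between these medians were not tested.

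**Figure D5:**
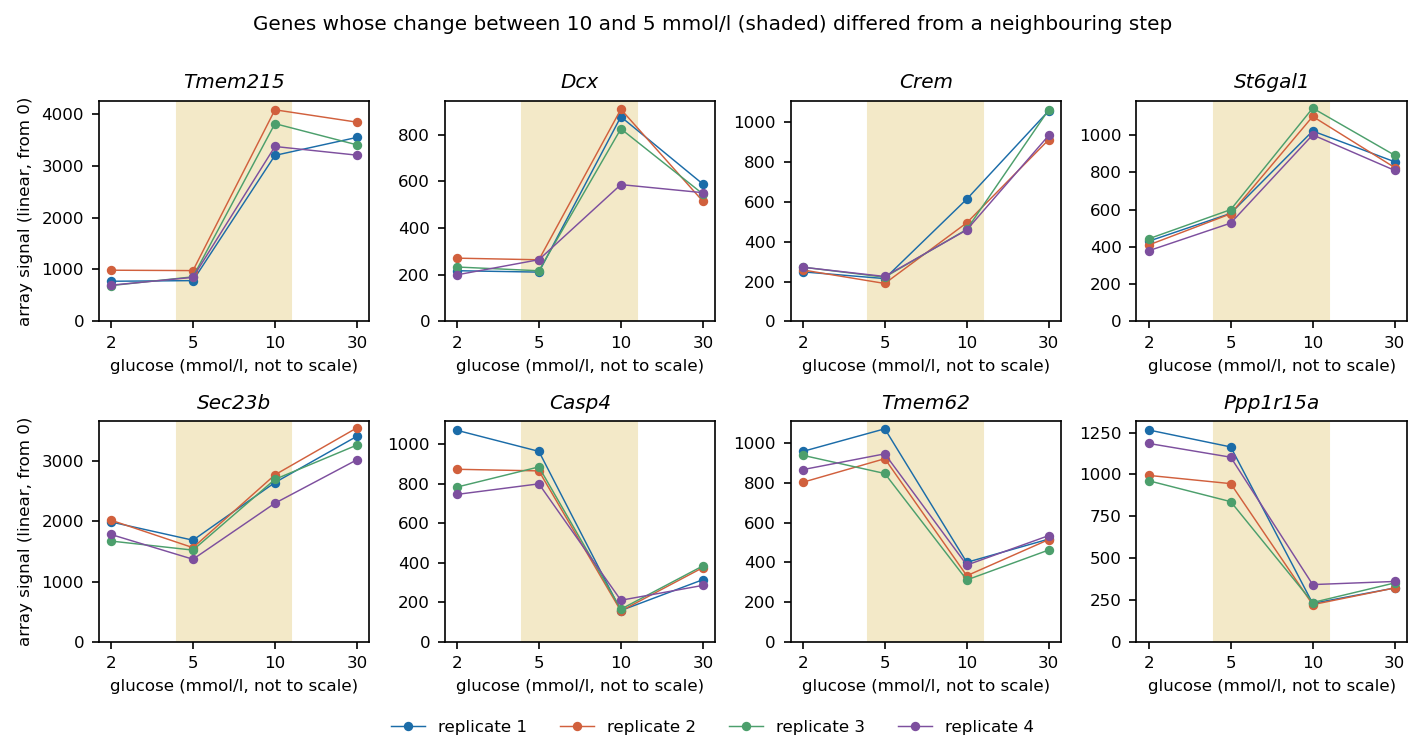
Signal on a linear axis from 0 in each of the 16 arrays, by glucose concentration (2, 5, 10 and 30 mmol/l), with lines joining arrays of a preparation and the interval from 5 to 10 mmol/l shaded. Tmem215, Dcx and St6gal1 have their highest mean at 10 mmol/l, Crem and Sec23b go on rising to 30 mmol/l, and Casp4, Tmem62 and Ppp1r15a have their lowest mean at 10 mmol/l.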

How the data were processed

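The deposited table holds 1 intensity value per probe set and array on a linear scale, made with the Affymetrix software GCOS per the submitters' processing notes, whose version and settings are not given in the sources used here. The trimmed mean of every array is 150, as the deposited values show, so the authors had scaled the arrays to one another. Deposited scanner run files gave scan day, chip lot, fluidics run and module.

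From there, values under 3.4 (the 10th percentile of signals) were set to 3.4, log2 was taken without further normalization, and the 60% of probe sets with the highest mean were tested. limma 3.58.1 in R 4.3.3 (trended eBayes, 12 residual degrees of freedom) was fitted to 16 arrays with 1 mean per glucose concentration, and p-values were adjusted by Benjamini-Hochberg over the 18625 probe sets tested. Contrasts were 10 over 5 mmol/l and its difference from the changes 5 over 2 and 30 over 10 mmol/l. Tests of the array measures were exact permutations. On simulated data with the same groups, limma called 23, 35, 47 and 48 of 50 probe sets changed by 0.5, 1, 1.5 and 2 on the log2 scale, and 3 of 18425 unchanged ones. The simulated noise was independent between arrays, with no deviation shared by a preparation. Far fewer probe sets were changed in it than were called in the islet data, so these rates do not carry over. The number of arrays limits the precision.

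Of 31042 probe sets that are not controls, 20826 carried 1 gene symbol in the platform annotation, 436 several and 9780 none; only those with 1 are named. Each probe set, and each marker sum, was set against itself between arrays. The replicate number marks the islet preparation. Arrays of the same number deviated together. The correlation of deviations from the group means was 0.222 to 0.402 between 10 and 5 mmol/l, against -0.199 to 0.0243 for other numbers. Over all concentrations it was above 0.1 for every pair of the same number. The fit with the number as a block is therefore given beside many results it changes, but not beside all. Beta cell transcription factors, for example, had 7 higher without and 10 with the block. Channel genes had 7 higher and 3 lower without it, and 10 and 4 with it.

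The gene lists, the members named and the tests were chosen with earlier results of these data known. Named were the 20 largest changes each way with groups apart and a mean of at least 100 in 1 group, up to 6 called members of each list by p, a fixed set, and up to 10 genes each way per step difference; part of these are printed. Arcn1, Arf4, Copa, Copb2, Flcn, Pmvk and Txndc12 were named after their values were seen. Promoters came from RefSeq (GRCr8) by gene symbol, which matched 8592 tested genes. Alternatives varied the scaling, filter, floor, variance model, block, threshold and arrays; the array's own detection calls were not used here.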

Additional observations from a re-analysis of the deposited data

Results flagged for a closer look

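Within a concentration, 1 array stood far from the other 3 for 25 of 394 groups of 4 arrays examined for genes named here, judged by its gap to the nearest array as a share of the whole range (Dixon's criterion). Chance alone marks about 1 in 20 such groups. No explanation was examined. The 10 mmol/l array of preparation 4 stood apart for Casp4 at 209.5 against 155 to 164, Map3k20 at 100.2 against 56.9 to 61.7, Srebf1 at 322 against 375 to 381 and Mrps5 at 296 against 226 to 234 on the others. The same array did so for Ddit3 at 614 against 198 to 226, Ppp1r15a at 341 against 221 to 234, Kcnj11 at 1044 against 1287 to 1332 and Tap1 at 106 against 80.4 to 82.2. The same array did so for Psmb8 at 167 against 118 to 125 and Cpt1a at 228.0 against 265 to 271. The 10 mmol/l array of preparation 1 stood apart for Gng2 at 342 against 465 to 489, Msmo1 at 2039 against 1297 to 1366, Fdft1 at 682 against 441 to 480.5 and Hnrnpa2b1 at 1169.6 against 1575 to 1611 on the others. The 5 mmol/l array of preparation 2 stood apart for Lpin1 at 166 against 120.0 to 128, Pdia6 at 4137 against 3638 to 3723, Nfe2l2 at 1404 against 1209 to 1226 and Irf7 at 109 against 143 to 148 on the others. The 5 mmol/l array of preparation 1 stood apart for LOC100909675 at 83.5 against 182 to 194, St18 at 357 against 319 to 323 and Kcnj11 at 1360.2 against 919 to 956 on the others. The 5 mmol/l array of preparation 3 stood apart for Gem at 73.4 against 100.1 to 103 and B2m at 5257 against 5823 to 5913 on the others. The 5 mmol/l array of preparation 4 stood apart for Taar1 at 36.1 against 65.8 to 68.8 and Rem2 at 369 against 250.0 to 267 on the others.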

How the results depend on the processing

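No gene given with values had a call of opposite direction under any alternative run. For 10 over 5 mmol/l, 25 of 29 alternatives kept the count of 3935 probe sets within 1.5 times; leaving out 1 array gave 3114 to 3688 and leaving out 1 preparation 2510 to 2960. A threshold of 0.01 gave 2246, a further demand of 1.5-fold 1742, and scan day 2 alone, added after seeing the data, 1639. With the preparation number as a block, which pairs the arrays, the count was 5895 (2918 higher, 2977 lower). The difference from the step between 5 and 2 mmol/l gave 868 probe sets, but 2094 with the replicate block, 1808 with a random block, 1522 with scan day as a block, 322 at 0.01 and 80 on scan day 2 alone; without 1 array it was 500 to 934 and without 1 preparation 261 to 437. The difference from the step between 30 and 10 mmol/l gave 1317, but 2980 with the replicate block, 2663 with a random block, 2281 with scan day as a block, 537 at 0.01 and 309 on scan day 2 alone; without 1 array it was 729 to 1266 and without 1 preparation 388 to 838. The cause was not tested, other than that fewer arrays enter when some are left out.

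Of 197 genes given with values, 175 were called; 151 of these passed under each alternative run for them (26 or 27, the stricter thresholds and scan day 2 alone aside), and 168 on leaving out each single array in turn. The replicate block ended no call and added 13. Leaving out a whole preparation also ended the calls of Pmvk (without preparation 3, limma adjusted p = 0.0556), Insig1 (2, 0.0617), Psmb9 (1, 0.0556), Tap2 (1 and 2, up to 0.0776), Irf7 (1, 3 and 4, up to 0.0879), Azin1 (1, 3 and 4, up to 0.0767) and Sms (2 and 4, up to 0.0742), besides those of Arcn1, Atf4, Cox6a2, Gipr, Irf1, Tapbp and Xbp1. The hybridization controls differed by 0.216 to 0.371 without 1 array, with an exact permutation p of 0.0286 at 0.371 (without the 5 mmol/l array of preparation 2), and the median log2 signal by 0.0478 to 0.0994, with an exact permutation p of 0.0286 at 0.0994 (without that of preparation 3). Of 57 gene lists, 15 kept their count of calls within 1.5 times throughout; a block moved 23, leaving out 1 array 21, leaving out 1 preparation 26 and another setting 16. Examples were tRNA synthetases without the variance trend or in the contrast's groups alone (1 higher, 4 lower in each), sterol control when the probe sets of each gene were averaged (4 and 1), early response genes among the upper 40% by level (3 and 2), and, centred on the median of all probe sets, hormones (2 and 0) and granule proteins (3 and 0). Low signals near the floor of 3.4 limit what can be said of genes such as Gtse1.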

Other observations

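The genes below were chosen after their values were seen. Several genes that cut and load peptides for class I molecules were lower at 10 mmol/l. Tap1, a subunit of the peptide transporter, had 80.4, 81.1, 82.2 and 106 on the 10 mmol/l arrays, against 329, 286, 263 and 229.5 on the 5 mmol/l arrays. Tap2, its partner, had 30.2, 26.4, 31.3 and 52.3 on the 10 mmol/l arrays, against 64.9, 63.3, 58.2 and 93.3 on the 5 mmol/l arrays. Both had groups apart, with log2 changes of -1.66 and -1.02 (limma adjusted p = 2.63e-07 and 0.0104), although the mean of the Tap1 probe sets did not pass (limma adjusted p = 0.37). Psmb9, an immunoproteasome subunit, had overlapping groups and a change of -0.85 (limma adjusted p = 0.00333), and Irf7, an interferon regulatory factor, a change of -0.60 (limma adjusted p = 0.0144). Irf1, a further such factor, had -0.36 (limma adjusted p = 0.0169), a call that ended without the 10 mmol/l array of preparation 3 (0.0514) or the 5 mmol/l array of preparation 2 (0.0667). Tapbp, which bridges transporter and class I molecule, had -0.49 (limma adjusted p = 0.0249), which ended without the 10 mmol/l array of preparation 2 or 3 (0.063 and 0.0939) or the 5 mmol/l array of preparation 1, 3 or 4 (0.0625, 0.071 and 0.0637). The immunoproteasome subunits Psmb8 and Psmb10 did not pass (-0.59 and 0.11, limma adjusted p = 0.0795 and 0.609), though Psmb8 did with the preparation number as a block (0.00366). B2m, the light chain of class I molecules, was higher by 0.30 (limma adjusted p = 0.00745), but not after quantile normalization (0.331) or centring on the median of all probe sets (0.107).

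Genes of polyamine metabolism changed in both directions. Besides the decrease of Sat1, Amd1, which supplies the aminopropyl donor, had 763, 739.7, 789 and 681 on the 10 mmol/l arrays, against 445, 461, 468 and 462 on the 5 mmol/l arrays, a change of 0.69 (limma adjusted p = 1.26e-05). Azin1, which protects ornithine decarboxylase, rose by 0.43 (limma adjusted p = 0.00812, 0.0544 with each array centred on the median of all its probe sets), and Sms, spermine synthase, had a change of -0.48 (limma adjusted p = 0.0118). Odc1, the decarboxylase, did not pass (-0.28, limma adjusted p = 0.0873, 0.00796 with the preparation number as a block), nor did Srm, spermidine synthase (0.24, limma adjusted p = 0.309).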
